A study of Saccharomyces cerevisiae with 16 samples.

Results

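The 48 genes described here encode proteins of the small-subunit processome, the large nucleolar particle in which the 40S ribosomal subunit begins to form, and factors that finish that subunit. They were taken by systematic ID: box C/D core proteins, UTP and other 90S factors, and 40S maturation factors. All 48 are among the 7126 genes of the count tables, and all 48 were among the 6106 genes with enough reads to be tested. No member overlaps another gene of the RefSeq assembly R64.

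The samples are spheroplasts, cells freed of their wall, of budding yeast (Saccharomyces cerevisiae) that lack TRM10 (trm10∆). All 6 groups carry that deletion, and no wild-type strain was analysed here. Cells were electroporated with rancRNA_18, with rancRNA_18-M2 or with no RNA. The sources used here do not give the difference between rancRNA_18-M2 and rancRNA_18. From each, poly(A) mRNA was sequenced from the polysomal fractions of a gradient, pooled, and from the whole lysate (total mRNA). There were 3 polysomal and 3 total libraries with rancRNA_18-M2, 3 and 3 with no RNA, and 2 of total mRNA with rancRNA_18. Both files deposited for polysomal mRNA with rancRNA_18 were identical, gene by gene, and entered as 1 library. Nothing in the labels says whether replicates came from separate cultures, so the p-values measure the spread between these libraries.

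Libraries held 16691019 to 31148081 reads in genes, and TRM10 had 0 to 5 reads in each. The 48 members together took 0.281 to 0.356% of the reads of a polysomal library (7 libraries) and 0.375 to 0.439% of those of a total library (8 libraries). These 2 ranges do not overlap. Levels are relative to the other genes of the same library. How much mRNA, or how many polysomes, a cell held was not measured.

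In yeast, ribosomal RNA is cut out of a long precursor transcribed in the nucleolus. The U3 small nucleolar RNA, a box C/D RNA, pairs with the precursor, and protein modules (UtpA, UtpB, the Mpp10 complex) build up on the nascent RNA around it. Helicases then remodel the particle, and the pre-40S subunit is exported and matured in the cytoplasm, where the end of 18S rRNA is cut. The genes for these proteins belong to the ribosome biogenesis regulon, whose promoters commonly carry the PAC and RRPE elements.

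The promoters of the members were searched for the cores of those elements. Because promoters of this regulon commonly carry them, a high share was foreseen, although the rule that chose the genes did not use them. The 6001 windows of all genes include those of the members. The window ran from 250 bases before to 50 bases after the start codon in R64, on both strands. The letters CGATGAG (PAC core) stood in 37 of 48 windows (77.1%), against 421 of 6001 windows of all genes (7.02%). The letters AAAATTTT (RRPE core), which read the same on both strands, stood in 36 of 48 (75%), against 542 of 6001 (9.03%). Both cores were present in 28 member windows (58.3%), against 158 of all windows (2.63%), and at least 1 in 45 (93.8%), against 805 (13.4%). The cores do not share letters, although matches may abut. The windows without either belonged to UTP22, RRP9 and EMG1. Of 38 other small-subunit assembly genes 44.7% had the PAC core and 71.1% the RRPE core, and of 64 genes of 60S assembly 64.1% and 78.1%. A match describes letters in a window and shows no bound factor.

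**Figure D1:**
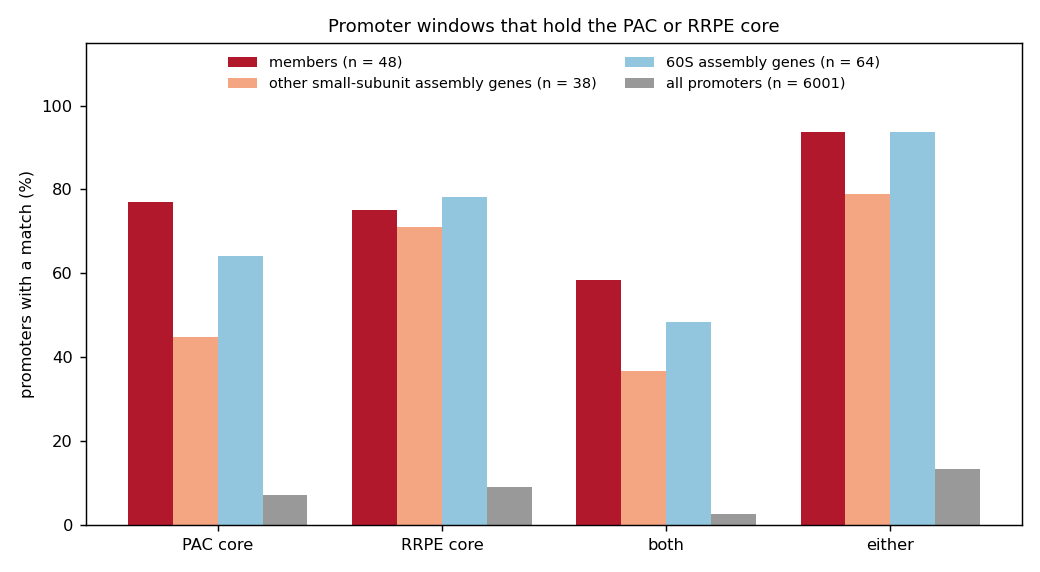
Share of promoter windows, in percent, that hold the PAC core, the RRPE core, both or either, for the 48 members, 38 other small-subunit assembly genes, 64 genes of 60S assembly and all 6001 windows. The members have the PAC core in 77.1% and the RRPE core in 75% of windows, against 7.02% and 9.03% of all windows.

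The median distance of a match from the start codon was 116.5 bases for the PAC core (38 matches) and 137 bases for the RRPE core (44 matches). The stretches below hold both cores close together. They come from 5 members that were lower in polysomes (NSR1, ENP1, UTP14, ROK1, NOP58) and from DIM1, which was higher there by library-scaled counts. They are RefSeq R64 sequence, read 5′ to 3′ on the strand of the gene, with the cores in capitals (CTCATCG is the PAC core read on the other strand). Their positions are those of R64, since no source used here names a build for the counts. They lie at chrVII:807813-807851 on the minus strand (NSR1), chrII:714562-714599 minus (ENP1), chrXIII:82966-83010 plus (UTP14), chrVII:182265-182298 plus (ROK1), chrXV:898460-898490 minus (NOP58) and chrXVI:38954-38993 plus (DIM1).
NSR1: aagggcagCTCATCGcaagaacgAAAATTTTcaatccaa
ENP1: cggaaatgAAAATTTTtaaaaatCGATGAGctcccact
UTP14: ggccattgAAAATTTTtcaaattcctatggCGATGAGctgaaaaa
ROK1: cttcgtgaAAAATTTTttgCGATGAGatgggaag
NOP58: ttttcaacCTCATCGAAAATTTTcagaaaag
DIM1: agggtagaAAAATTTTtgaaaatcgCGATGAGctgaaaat
These stretches are examples, and whether the cores bear on the polysomal share was not tested.

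Per length, the members spanned a wide range of abundance. As a mean over the 15 libraries, SNU13 stood at 570.1 TPM (a level per coding length; 423.8 to 700.9) and NOP1 at 247.9 TPM (164.8 to 335.3). They were followed by NSR1 at 144.7, EMG1 at 86.35, KRR1 at 82.71 and NOP56 at 74.3 TPM. With polysomal and total libraries pooled, the ranges of these 4 genes overlap. In total mRNA the NSR1 means were 200.9 (no RNA), 190 (rancRNA_18) and 188.4 TPM (rancRNA_18-M2). The highest values in any library were 107.3 TPM for EMG1, 109.7 for KRR1 and 99.57 for NOP56. In polysomal mRNA the NSR1 means were 96.29 (SD 16.99, no RNA) and 83.61 TPM (SD 9.007, rancRNA_18-M2). With no RNA the polysomal means were 76.38 (SD 8.889) for EMG1, 74.66 (SD 14.73) for KRR1 and 79.09 TPM (SD 22.85) for NOP56. With rancRNA_18-M2 they were 73.62 (SD 5.078), 70.11 (SD 11.43) and 53.13 TPM (SD 18.12) in that order. Differences between these genes were not tested. The least abundant were DHR2 at 2.323 TPM and UTP20 at 1.424 TPM, and UTP20 is the longest member with 7482 coding bases. The box C/D proteins, which also serve the many other RNAs of that class, thus included the 2 most abundant mRNAs of the set, and a processome scaffold the least abundant one.

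The comparison of polysomal with total mRNA asks which members had a lower or higher share in the pooled polysomal fractions than in the whole lysate. Most members had a lower share in polysomes. With rancRNA_18-M2 the median log2 fold change of polysomal over total was -0.312 over the 48 members, against -0.006 over all genes, and 39 of 48 lay below 0. With no RNA it was -0.207, against -0.021 over all genes, and 38 of 48 lay below 0. The no-RNA median was -0.123 without polysomal replicate 2 and -0.295 without polysomal replicate 1. Few single members passed when replicate numbers were ignored: edgeR's quasi-likelihood test (Benjamini-Hochberg adjusted p under 0.05 over all genes, as throughout) called 0 higher and 1 lower with rancRNA_18-M2, where it called 0.0819% of all genes higher and 0.295% lower. With no RNA it called 0 higher and 0 lower, against 0% and 0.197% of all genes. An unadjusted p under 0.05 was reached by 19 members with rancRNA_18-M2 (17.3% of all genes) and by 13 with no RNA (10.6% of all genes). DESeq2 called 13 members lower with rancRNA_18-M2 (2.82% of the genes it adjusted) and 7 with no RNA (1.19%), and none higher in either.

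Libraries with the same replicate number deviated together across groups, so the number was also fitted as a block. With the replicate block, 26 members were lower and 2 higher in polysomal mRNA with rancRNA_18-M2, where 15.0% of all genes were called lower and 16.8% higher. With no RNA 16 members were lower and 1 higher, against 9.48% and 12.3% of all genes. The medians hardly moved, at -0.315 and -0.213. All 16 members that were lower with no RNA were also among the 26 with rancRNA_18-M2, DIM1 was higher in both, and 20 members were called in neither. The no-RNA count rests in part on single libraries: it was 7 lower without polysomal replicate 2 and 10 lower without total replicate 3.

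Without any model, every polysomal library lay below every total library in 22 of 48 members with rancRNA_18-M2 (10.7% of all genes) and in 17 of 48 with no RNA (7.68% of all genes). The reverse separation occurred in 0 members in either, against 9.38% and 5.68% of all genes. Within numbered pairs, the median difference over members was -0.253, -0.428 and -0.282 on the log2 scale for replicates 1, 2 and 3 with rancRNA_18-M2, and -0.105, -0.36 and -0.16 with no RNA. Over all genes these medians ran from -0.0415 to 0.00214. Of the 48 members, 27 were lower in all 6 pairs (20.8% of all genes) and 1, DIM1, in 0 of 6 (19.5% of all genes).

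**Figure D2:**
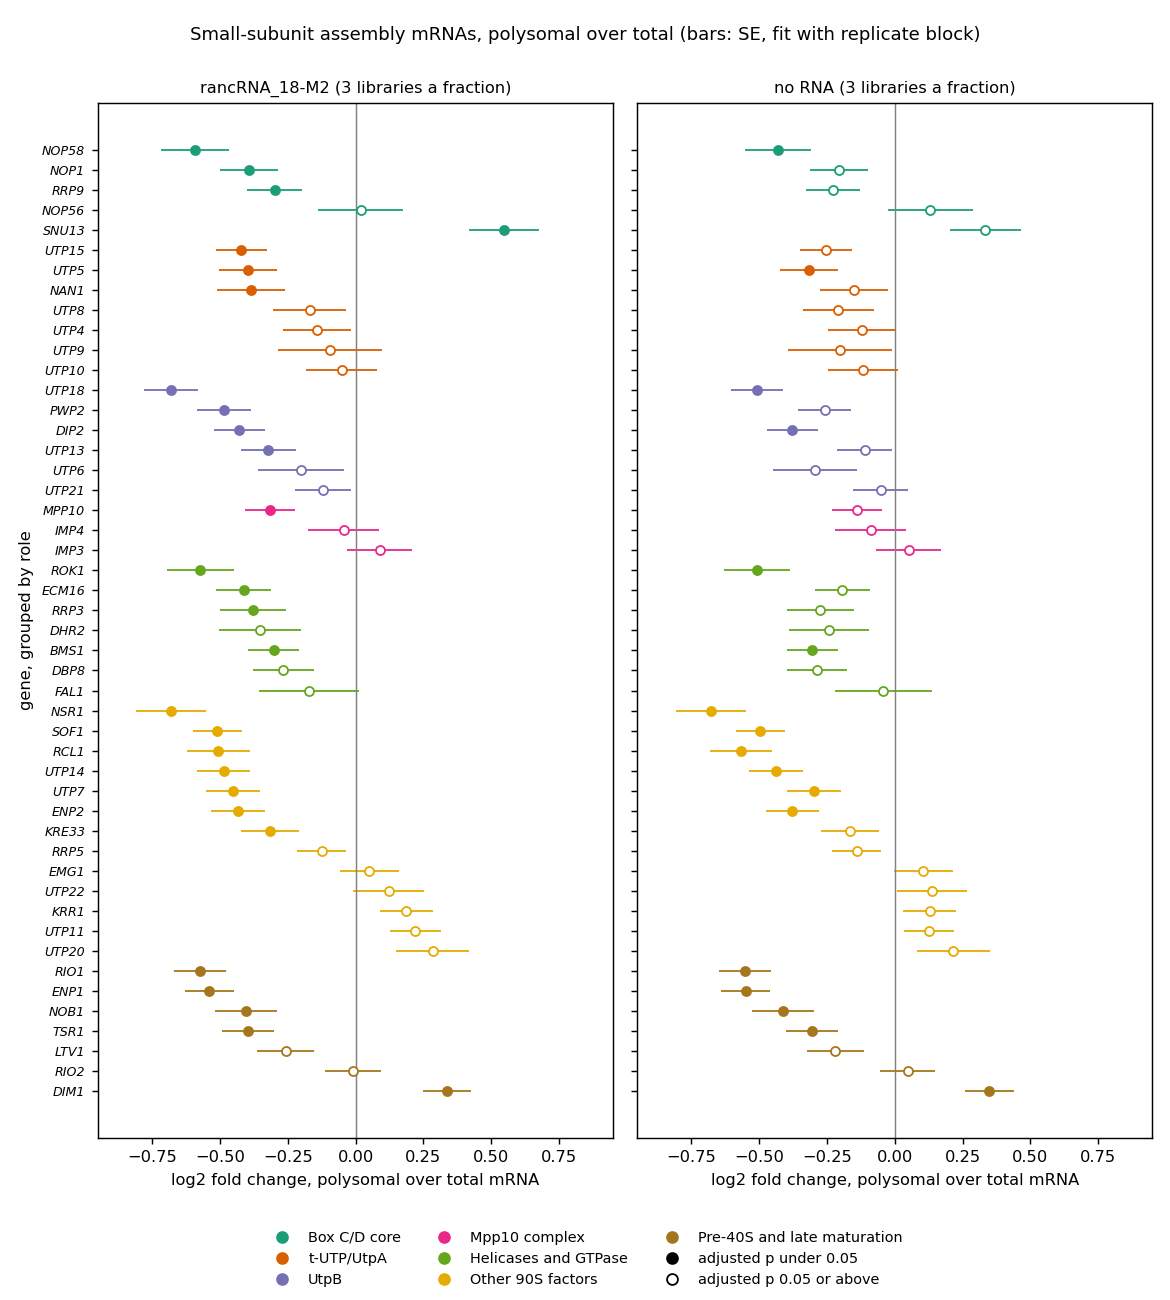
Log2 fold change of polysomal over total mRNA for the 48 members, grouped by role, with rancRNA_18-M2 (left) and no RNA (right), from the fit with the replicate block. Points are estimates, bars 1 SE, and filled points have an adjusted p under 0.05; 26 members are lower on the left and 16 on the right, while DIM1 stands above 0 in both.

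The calls among the box C/D core proteins went both ways with rancRNA_18-M2. With the replicate block, of this group of 5 (the core proteins and RRP9, the protein specific to U3) 3 were lower and 1 higher with rancRNA_18-M2, and 1 was lower with no RNA. Of all genes, 15.0% were lower and 16.8% higher with rancRNA_18-M2 in that fit, and 9.48% lower and 12.3% higher with no RNA. The 1 of 5 that was higher is thus near the share of all genes. It was SNU13, with 381 coding bases, and 39.5% of all genes under 1000 coding bases were higher with rancRNA_18-M2. NOP58 (YOR310C), a scaffold of the particle, had 75.97, 76.67 and 87.38 CPM (reads of a gene, scaled by library size) in polysomal mRNA with rancRNA_18-M2, against 120.8, 95.41 and 147.9 CPM in total mRNA. Without RNA, NOP58 had 107.4, 92.33 and 105.1 CPM in polysomal mRNA, against 114.8, 146.3 and 151 CPM in total mRNA. Polysomal values lay below total values in both, without overlap. The log2 fold changes with the block were -0.59 (SE 0.124, edgeR adjusted p = 0.0013) and -0.43 (SE 0.123, adjusted p = 0.018).

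NOP1 (YDL014W), the methyltransferase fibrillarin, had 436.8, 342.4 and 257 CPM in polysomal and 484.1, 497.3 and 364 CPM in total mRNA with rancRNA_18-M2. In the no-RNA group NOP1 had 409.5, 351.2 and 311.1 CPM in polysomal and 450.2, 433.2 and 352.8 CPM in total mRNA. It was lower within each pair, but the groups overlap, and with the block it passed with rancRNA_18-M2 (log2 fold change -0.39, SE 0.108, edgeR adjusted p = 0.0093) and not with no RNA (-0.21, adjusted p = 0.19). NOP56 (YLR197W), the partner scaffold of NOP58, had 166.6, 130 and 172.7 CPM in polysomal and 151.1, 129.2 and 182.2 CPM in total mRNA with rancRNA_18-M2. With no RNA the values were 305.7, 165.6 and 192.8 CPM in polysomal and 208.4, 203.5 and 182.1 CPM in total mRNA. The groups overlap in both, and polysomal replicate 1 with no RNA stood far above the rest. Its log2 fold changes with the block were 0.02 (SE 0.156) and 0.13 (SE 0.156), and neither passed.

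SNU13 (YEL026W), which binds the kink-turn of box C/D RNAs and also belongs to the spliceosome, stood on the other side. It had 518.4, 483.1 and 297.1 CPM in polysomal and 355.3, 268.1 and 244.8 CPM in total mRNA with rancRNA_18-M2. With no RNA the values were 503.8, 501.4 and 246.8 CPM in polysomal and 368.2, 344.7 and 250.4 CPM in total mRNA. Replicate 3 was the low one in each of these groups, and with no RNA its polysomal value did not exceed its total value. With the block the log2 fold change was 0.55 with rancRNA_18-M2 (SE 0.13, edgeR adjusted p = 0.0033) and 0.33 with no RNA (SE 0.13, adjusted p = 0.074). The polysomal and total groups overlap in both electroporations. Without the block neither passed (edgeR adjusted p = 0.34 with rancRNA_18-M2 and 0.73 with no RNA). As TPM the SNU13 means were 553.5 in polysomal and 520.5 in total mRNA with rancRNA_18-M2. With no RNA they were 577.2 and 586 TPM, so that direction depends on the scaling.

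**Figure D3:**
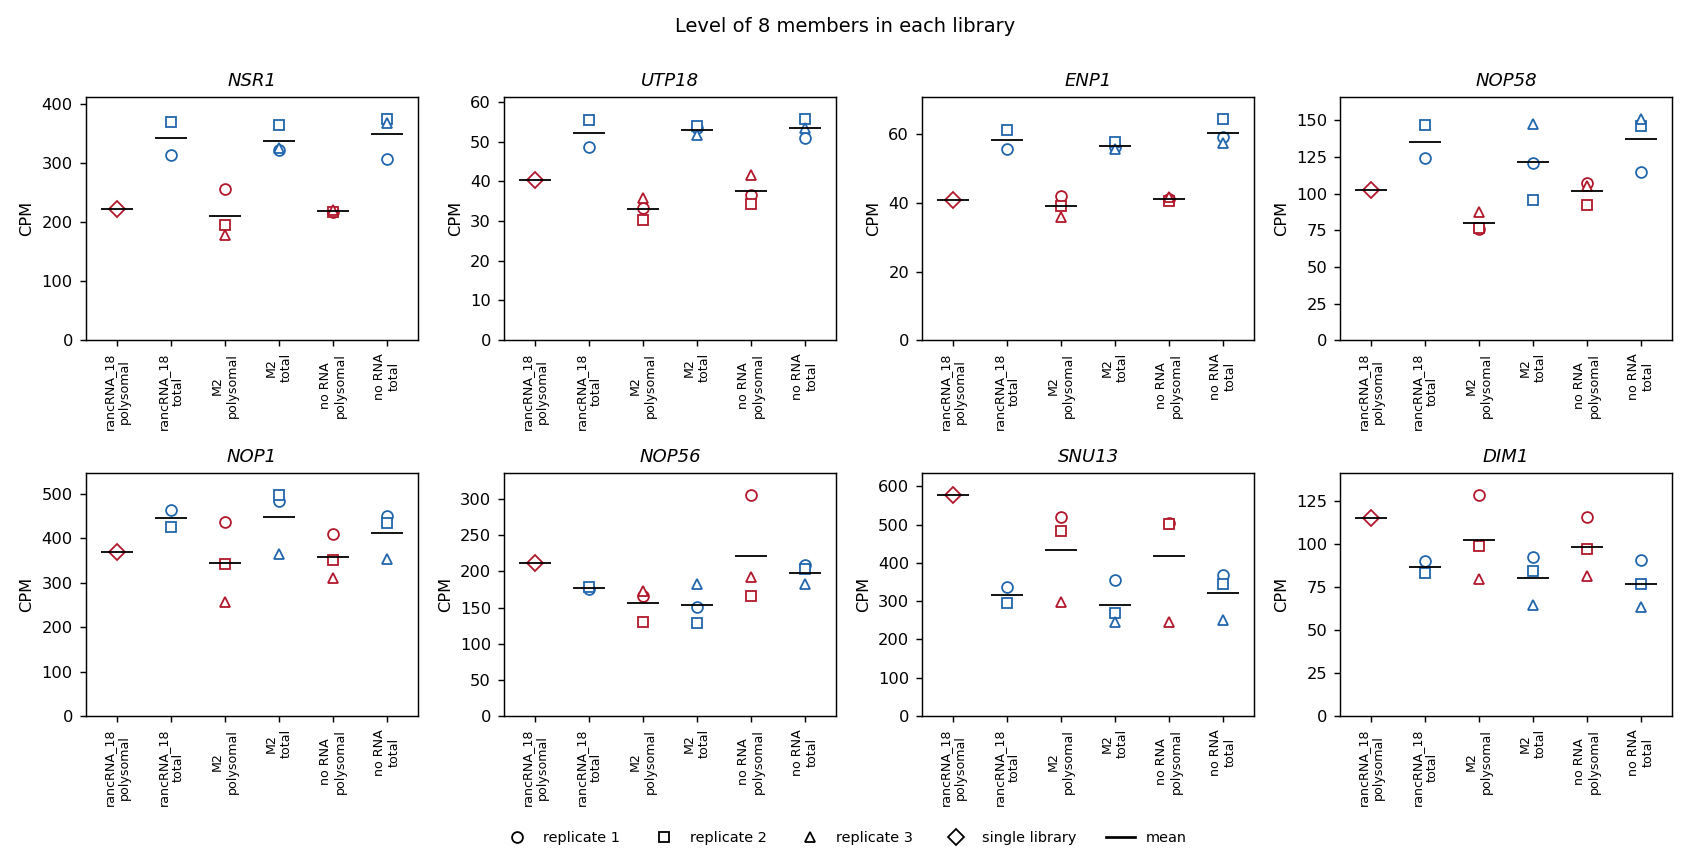
CPM of 8 members in each library, by electroporation and fraction, polysomal libraries in red and total libraries in blue; symbols mark the replicate number, the diamond the single rancRNA_18 polysomal library, and lines the group means. NSR1, UTP18 and ENP1 are lower in all polysomal libraries, whereas SNU13 reaches 577.1 CPM in the rancRNA_18 polysomal library, against 338.2 and 295.2 CPM in the total ones.

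Among the early modules, every member of UtpA and UtpB had a fitted log2 fold change below 0, but not in every pair of libraries. Of 7 UtpA members 4 were lower in all 3 numbered pairs with rancRNA_18-M2 and 2 with no RNA, and of 6 UtpB members 5 and 4, against 29.4% and 28.7% of all genes. With rancRNA_18-M2 the pair of replicate 3 stood above 0 for UTP6, UTP8, UTP9 and UTP10. UtpA, which binds the start of the precursor, had 7 of 7 fitted values below 0 in both electroporations, but with the block only 3 of 7 passed with rancRNA_18-M2 (UTP15, UTP5 and NAN1) and 1 of 7 with no RNA (UTP5). UtpB had 6 of 6 below 0, with 4 called lower with rancRNA_18-M2 (UTP18, PWP2, DIP2 and UTP13) and 2 with no RNA (UTP18 and DIP2). The fit with the block called 15.0% of all genes lower with rancRNA_18-M2 and 9.48% with no RNA. UTP18 (YJL069C) of UtpB, known in yeast to recruit the exosome-associated helicase, was the 1 member called without the block. It had 33.17, 30.27 and 35.8 CPM in polysomal and 53.31, 53.95 and 51.56 CPM in total mRNA with rancRNA_18-M2, and the groups are far apart. The log2 fold change was -0.68 (SE 0.125, edgeR adjusted p = 0.037) without the block and -0.68 (SE 0.098, adjusted p = 6.6e-05) with it. The call without the block was lost with no filter on low counts and in 5 of 6 fits that left out 1 library, all but the one without rancRNA_18-M2 polysomal replicate 1. The no-RNA group had 36.63, 34.26 and 41.65 CPM in polysomal and 50.98, 55.67 and 53.37 CPM in total mRNA, again without overlap. That log2 fold change was -0.51 with the block (SE 0.0971, edgeR adjusted p = 0.0013). In the Mpp10 complex, which holds U3 to the precursor, MPP10 was lower with rancRNA_18-M2 (-0.31, edgeR adjusted p = 0.014 with the block), while IMP3 (0.09) and IMP4 (-0.04) did not pass, and with no RNA 0 of 3 passed.

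The enzymes that remodel the particle had fitted log2 fold changes below 0, 7 of 7 in both electroporations, and 6 of 7 were lower in all 3 pairs of each; the exception was FAL1, a DEAD-box helicase. With the block 4 of 7 passed with rancRNA_18-M2 (ROK1, ECM16, RRP3 and BMS1) and 2 of 7 with no RNA (ROK1 and BMS1). That fit called 15.0% of all genes lower with rancRNA_18-M2 and 9.48% with no RNA. ROK1 (YGL171W), a DEAD-box helicase, had 20.36, 17.23 and 21.67 CPM in polysomal and 27.32, 31.11 and 29.58 CPM in total mRNA with rancRNA_18-M2. Without RNA, ROK1 had 21.41, 17.13 and 22.49 CPM in polysomal and 27.96, 29.42 and 29.39 CPM in total mRNA. Every polysomal value lay below every total value in each, and the log2 fold changes with the block were -0.57 (SE 0.124, edgeR adjusted p = 0.0017) and -0.51 (SE 0.123, adjusted p = 0.0066). ECM16, the helicase that removes U3 from the precursor, was called with rancRNA_18-M2 only (-0.41, edgeR adjusted p = 0.0044 with the block, against -0.19, adjusted p = 0.19, with no RNA), and the test of the difference between these did not pass (-0.22, adjusted p = 1).

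Among the 13 other 90S factors, 7 were lower with rancRNA_18-M2 and 6 with no RNA in the fit with the block, and 5 stood above 0 in both without passing. Over all genes, 15.0% were lower with rancRNA_18-M2 in that fit and 9.48% with no RNA. NSR1 (YGR159C), a nucleolin-like protein, had the lowest log2 fold change of the 48 in both. It had 256.2, 195.7 and 177.6 CPM in polysomal and 321.4, 363.7 and 324.8 CPM in total mRNA with rancRNA_18-M2. The no-RNA libraries held 216.8, 217.7 and 220.6 CPM in polysomal and 306.3, 374.4 and 367.3 CPM in total mRNA. The groups do not overlap, and the log2 fold changes with the block were -0.68 in both (SE 0.129, edgeR adjusted p = 0.00058 with rancRNA_18-M2 and 0.0012 with no RNA).

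SOF1 (YLL011W), a WD-repeat protein tied to U3, had 41.41, 37.09 and 36.38 CPM in polysomal and 52.69, 55.31 and 55.36 CPM in total mRNA with rancRNA_18-M2. In the no-RNA group SOF1 had 40.51, 40.82 and 39.94 CPM in polysomal and 54.3, 59.48 and 57.23 CPM in total mRNA. Neither pair of groups overlaps, and log2 fold changes with the block were -0.51 and -0.50 (edgeR adjusted p = 0.00036 and 0.00098). UTP14, which activates ECM16, stood at -0.49 and -0.44, and RCL1, the partner of the GTPase BMS1, at -0.51 and -0.57, with rancRNA_18-M2 and no RNA in that order, and both passed in both. The members above 0 were KRR1, UTP11, EMG1, UTP20 and UTP22. As TPM, the polysomal mean of each lay below its total mean in both electroporations. For KRR1 these means were 70.11 and 84.93 TPM with rancRNA_18-M2, and 74.66 and 87.3 TPM with no RNA. KRR1, a KH-domain protein, stood at 0.19 and 0.13, and UTP20, the long scaffold, at 0.28 and 0.22.

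Of the 7 late factors 4 were lower and 1 higher in both electroporations with the block. Over all genes, 15.0% were lower and 16.8% higher with rancRNA_18-M2, and 9.48% lower and 12.3% higher with no RNA. The 1 of 7 that was higher is thus near the share of all genes. ENP1 (YBR247C), which travels with the particle from nucleolus to cytoplasm, had 41.97, 39.04 and 35.88 CPM in polysomal and 56.29, 57.61 and 55.72 CPM in total mRNA with rancRNA_18-M2. Without RNA, ENP1 had 41.13, 40.59 and 41.68 CPM in polysomal and 59.13, 64.42 and 57.46 CPM in total mRNA. The groups do not overlap, and log2 fold changes with the block were -0.54 (SE 0.0899, edgeR adjusted p = 0.00019) and -0.55 (SE 0.0894, adjusted p = 0.0005).

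RIO1, a kinase of the last steps, stood at -0.57 and -0.55, NOB1, the endonuclease that makes the end of 18S rRNA, at -0.40 and -0.41, and TSR1, a GTPase-like factor, at -0.40 and -0.31, and each passed in both. RIO2, the kinase related to RIO1, stayed near 0 (-0.01 and 0.05) and did not pass. DIM1 (YPL266W), which dimethylates 18S rRNA, had 128.8, 98.9 and 79.76 CPM in polysomal and 92.57, 84.42 and 64.58 CPM in total mRNA with rancRNA_18-M2. With no RNA it had 115.7, 97.39 and 81.62 CPM in polysomal and 90.66, 77.23 and 63.74 CPM in total mRNA. The groups overlap, but each pair was higher in polysomes, and log2 fold changes with the block were 0.34 (SE 0.0898, edgeR adjusted p = 0.0074) and 0.35 (SE 0.0897, adjusted p = 0.0096). As TPM the order was reversed, with means of 52.61 in polysomal and 57.58 in total mRNA with rancRNA_18-M2. With no RNA the TPM means were 55.37 and 56.1. The direction for DIM1 thus depends on the scaling, as it does for KRR1, UTP11, EMG1, UTP20 and UTP22.

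With rancRNA_18 the same comparison rests on 1 polysomal library against 2 total libraries. Its spread is borrowed from the other groups, and the lone library is assumed to vary like them. The median over members was -0.153, against -0.058 over all genes, and edgeR called 0 members without the block (0% of all genes in each direction), with 9 at an unadjusted p under 0.05 (8.24% of all genes). DESeq2 with its default filtering gave no member an adjusted p, and with that filtering off it called 0 members (0.344% of all genes higher and 0.180% lower). The replicate number of the lone library cannot be read from the labels, so the block was run with it as 1 and as 2. As replicate 1, 7 members were lower and 1 higher (3.93% and 8.32% of all genes), and as replicate 2, 10 were lower and 4 higher (13.6% and 16.2%). With the library as replicate 1, leaving out either total library brought the calls to 0. SNU13 had 577.1 CPM in the polysomal library and 338.2 and 295.2 CPM in the total ones, a log2 fold change of 0.79 (SE 0.196, edgeR adjusted p = 0.013) as replicate 1 and 0.95 (SE 0.196, adjusted p = 0.0015) as replicate 2. ENP1 had 40.9 CPM against 55.54 and 61.21 CPM, at -0.49 (edgeR adjusted p = 0.029) and -0.53 (adjusted p = 0.009).

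Coding length moved with the polysomal share across the transcriptome. Spearman's rho between coding length and the log2 fold change, across 5744 genes that are not independent of each other, was -0.42 with rancRNA_18-M2, -0.44 with rancRNA_18 and -0.36 with no RNA. The members are longer than most genes, with a median of 1680 coding bases (381 to 7482), against 1225.5 over the tested genes with a length. A smooth trend on length was then removed from the fit without the block. After that, 38 of 48 members lay below 0 with rancRNA_18-M2 and with no RNA, against 50.5% and 51% of all genes with a length. The median over members was -0.224 with rancRNA_18-M2 and -0.146 with no RNA. With rancRNA_18 it was -0.018 without the block, with 24 of 48 below 0 (50.8% of all genes). It was -0.181 (33 of 48 below 0, 50.5% of all genes) with the block and the lone library as replicate 1. With that library as replicate 2 it was 0.0801 (21 of 48 below 0, 50.9% of all genes), so its sign rests on that number.

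The members under 1000 coding bases, a limit set after the values were seen, were SNU13, IMP3, UTP11, EMG1, IMP4, KRR1, DIM1 and NOP1. In the blocked fit 1 of these 8 was lower and 2 higher with rancRNA_18-M2, where 5.89% of all genes of that length were lower and 39.5% higher. With no RNA 0 of 8 were lower and 1 higher, against 5.13% and 30.6%. Of the 40 longer members 25 (62.5%) were lower with rancRNA_18-M2 and 16 (40%) with no RNA, against 21% and 11.7% of all longer genes.

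**Figure D4:**
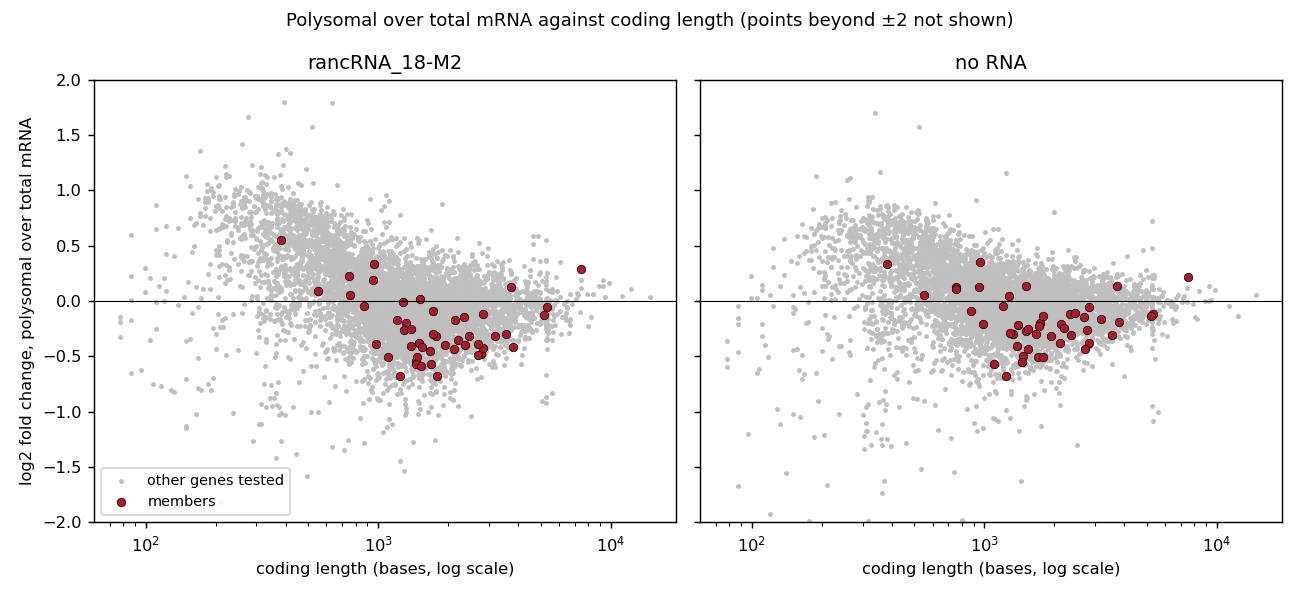
Log2 fold change of polysomal over total mRNA (fit with the replicate block) against coding length in bases on a log axis, with rancRNA_18-M2 (left) and no RNA (right); red points are the 48 members and grey points the other tested genes. Short genes lie higher in polysomes, and most members above 1000 bases lie below 0.

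Other genes of the pathway moved in the same fit. With the block, 13 of 38 other small-subunit assembly genes were lower and 3 higher with rancRNA_18-M2, and 12 lower and 1 higher with no RNA. RRP36 (-0.68 and -0.64) and MRD1 (-0.70 and -0.62), both of the 90S particle, were lower, and FCF1, a nuclease-like factor of that particle, was higher (0.66 and 0.58). Of 64 genes of 60S assembly, 31 were lower and 3 higher with rancRNA_18-M2, and 17 lower and 2 higher with no RNA. For both lists the shares of all genes were 15.0% lower and 16.8% higher with rancRNA_18-M2, and 9.48% and 12.3% with no RNA. EBP2 stood at -0.75 and -0.67, and DBP2, a DEAD-box helicase, at -0.84 with no RNA, and each passed in both. NIP7 was higher with rancRNA_18-M2 (0.73, edgeR adjusted p = 0.0002). The median over the 60S genes was -0.305 with rancRNA_18-M2 and -0.229 with no RNA, beside -0.315 and -0.213 over the members.

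Whether the electroporated RNA altered the members was addressed within each fraction. In total mRNA, edgeR without the block called 0 members in each of the 3 comparisons (0% of all genes), 0 had an unadjusted p under 0.05 (0.442% of all genes for rancRNA_18 against no RNA, 0.590% for rancRNA_18-M2 against no RNA and 0.115% for rancRNA_18 against rancRNA_18-M2), and DESeq2 and the fit with the block also called 0. The median log2 fold change was 0.003 for rancRNA_18 against no RNA, -0.065 for rancRNA_18-M2 against no RNA and 0.076 for rancRNA_18 against rancRNA_18-M2. These 3 comparisons share libraries. ECM16 had 37.43 and 37.09 CPM with rancRNA_18, against 25.61, 30.94 and 32.21 CPM with no RNA, a log2 fold change of 0.33 (SE 0.172) that did not pass. The 2 rancRNA_18 libraries lay above all 3 of the others, but the share of all genes separated in this way was not counted. ECM16 was named here for its small p among the members.

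In polysomal mRNA edgeR without the block and DESeq2 called 0 members (0% of all genes) in the 3 comparisons. An unadjusted p under 0.05 was reached by 1 member, NOP56, for rancRNA_18-M2 against no RNA (0.622% of all genes). It was reached by 0 for rancRNA_18 against no RNA (0.360%) and for rancRNA_18 against rancRNA_18-M2 (0.639%). NOP56 had 166.6, 130 and 172.7 CPM with rancRNA_18-M2, against 305.7, 165.6 and 192.8 CPM with no RNA, a log2 fold change of -0.50 (SE 0.225, edgeR adjusted p = 1). Without polysomal replicate 1 of the no-RNA group it was -0.20. The median over members was -0.092 for this comparison, with 40 of 48 below 0, and it lay between -0.195 (without no-RNA polysomal replicate 2) and -0.042 (without rancRNA_18-M2 polysomal replicate 2) when each library was left out. For rancRNA_18 against no RNA the median was 0.064, with 30 of 48 above 0. It was 0.016 and 0.155 with the block (lone library as replicate 1 and as 2), and -0.036 without no-RNA polysomal replicate 2. For rancRNA_18 against rancRNA_18-M2 it was 0.167, with 41 of 48 above 0, and it was 0.092 and 0.264 with the block and 0.095 without rancRNA_18-M2 polysomal replicate 2. These 3 comparisons share libraries, and over all genes their medians were 0.009, -0.034 and -0.039 in the order given.

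For rancRNA_18 the calls depended on the number given to its polysomal library. As replicate 1, the block called 0 members against either group. As replicate 2, it called KRR1 and LTV1 higher and 0 lower against no RNA, or 4.17% of the members, near the 4.81% of all genes that were higher (3.80% were lower). Against rancRNA_18-M2 it called 6 higher and 0 lower, LTV1, KRR1, UTP11, ENP2, NAN1 and UTP4, or 12.5% of the members, where 7.45% of all genes were higher and 6.76% lower. KRR1 had 187.7 CPM with rancRNA_18, against 193.7, 123 and 96.86 CPM with rancRNA_18-M2 and 175.2, 118.8 and 103 CPM with no RNA. Its value thus lay close to replicate 1 and above replicates 2 and 3 of both groups. LTV1, an export-stage factor of pre-40S, had 90.34 CPM, against 100.6, 58.22 and 54.67 CPM with rancRNA_18-M2 and 103.2, 55.48 and 62.52 CPM with no RNA, in the same pattern. UTP11 (116.2 CPM, against 114.8, 86.84 and 58.54 CPM with rancRNA_18-M2) and ENP2 (37.79, against 37.05, 25.7 and 33.66 CPM) also lay close to replicate 1. NAN1 (31.75, against 22.37, 19.24 and 38.03 CPM) lay between replicates 1 and 3. UTP4 (43.23, against 33.66, 28.5 and 40.66 CPM) lay above all of them.

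A test of the difference itself, polysomal over total with an RNA against the same with no RNA, called 0 members by edgeR with or without the block and by DESeq2. It called 0% of all genes too, except for rancRNA_18 with the block and the lone library as replicate 2 (1.65% higher and 1.11% lower). An unadjusted p under 0.05 was reached by 0 members without the block (0.246% of all genes for rancRNA_18 and 0.213% for rancRNA_18-M2). The median difference was 0.056 for rancRNA_18 and -0.046 for rancRNA_18-M2, and neither kept its sign in every setting. With rancRNA_18 it was -0.031 and 0.13 with the block (lone library as replicate 1 and as 2), and -0.049 without no-RNA polysomal replicate 2 and 0.12 without no-RNA polysomal replicate 1. With rancRNA_18-M2 it was -0.049 with the block. Leaving out no-RNA polysomal replicate 1 or 2 gave 0.019 or -0.148, and leaving out rancRNA_18-M2 polysomal replicate 1 or 2 gave -0.126 or 0.009. For single members it ran from -0.419 to 0.488 with rancRNA_18 and from -0.218 to 0.203 with rancRNA_18-M2.

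Members also differed between replicate numbers. As the median deviation from the group mean (log2 CPM, 14 libraries), LTV1 stood at 0.449 in replicate 1, -0.233 in 2 and -0.288 in 3, IMP4 at 0.437, -0.0815 and -0.311, and UTP11 at 0.373, -0.00837 and -0.441. NAN1 showed another pattern, at -0.0408, -0.285 and 0.519, as did UTP22 at -0.0567, -0.377 and 0.404. The pairs of members with the most similar deviations were NOP1 with EMG1 (Pearson r = 0.974), KRR1 with UTP11 (0.967), UTP11 with DIM1 (0.965), NOP1 with DIM1 (0.964) and RIO2 with IMP4 (0.964), out of 1128 pairs with a median r of 0.16. These libraries share replicate numbers, so the values describe them and carry no test.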

How the data were processed

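The authors deposited unnormalized gene counts, with a file for each library, made from poly(A) RNA with a stranded Illumina kit, per the labels' protocols. Per the submitters' processing notes, the tools were FastQC, HISAT2 and featureCounts. No version, build, annotation or strand setting is stated in the sources used here, and no spike-in. In each file 1 line names no gene and is empty.

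The test on the counts of the 15 distinct libraries was that of edgeR 4.0.16 (R 4.3.3; robust quasi-likelihood, TMM, filterByExpr, 1 coefficient per group, Benjamini-Hochberg over 6106 genes, adjusted p under 0.05). The spread had 9 residual degrees of freedom, or 7 once a block for replicate number was added. The planned design assumed 16 libraries. The fit without the block was planned as the main one. Pairing was read from the data, not the labels: deviations from group means correlated at r from 0.429 to 0.794 in 26 pairs of libraries with the same number and from -0.587 to 0.0296 in 52 pairs with different numbers. Deviations within a group cancel out, so the second range is not independent of the first. The blocked value is therefore printed where it changes a call or a count by over 1.5 times. Comparisons without the lone rancRNA_18 polysomal library were the same whichever number it was given.

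Alternatives were RLE scaling, no filter, DESeq2 1.42.0 and leaving out each replicate. DESeq2's independent filtering left 306 genes with an adjusted p in 1 comparison. A run with it switched off was therefore added after the results were seen, and both are given. CPM used TMM library sizes, and log CPM a prior count of 2. TPM used coding lengths of R64, which matched 6048 IDs and not 1078. The length trend was a loess of span 0.5.

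Named members were the box C/D core proteins and, per comparison, up to 6 per direction with the smallest p where any member was called, otherwise 2. Members of each role that passed, and other members shown for their role, were added after their values were seen. The members and lists were chosen with earlier results of these data known. The scripts were tested on simulated data.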

Additional observations from a re-analysis of the deposited data

How the results depend on the processing

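Counts of called members depended on the replicate block and on the tool. The settings that combine the block with RLE scaling or with a left-out library, and DESeq2 with independent filtering off, were added after results were seen. For polysomal over total mRNA with no RNA, 0 members were called without the block, 17 with the replicate block (16 lower, 1 higher), 15 with the block and RLE scaling (14 lower, 1 higher), 7 by DESeq2 and 6 by DESeq2 with independent filtering off. Leaving out each replicate gave 0 without the block. With it, the counts without total replicates 1, 2 and 3 were 13, 12 and 11, and without polysomal replicates 1, 2 and 3 they were 17, 8 and 14. With rancRNA_18-M2, 1 member was called without the block, 28 with the replicate block (26 lower, 2 higher), 29 with the block and RLE scaling (26 lower, 3 higher), 13 by DESeq2 with either filtering, and 0 with no filter on low counts. Leaving out each replicate gave 0 to 3 without the block. With it, the counts were 24, 22 and 23 without total replicates 1, 2 and 3, and 27, 21 and 22 without polysomal replicates 1, 2 and 3. UTP18, the 1 member called without the block, lost its call in 5 of these 6 runs and with no filter. With rancRNA_18, the block gave 8 members with the lone library as replicate 1 (also 8 with RLE scaling) and 14 with it as replicate 2, against 0 without the block, by DESeq2, and when either total library was left out.

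Between electroporations, the block called 2 members for rancRNA_18 against no RNA and 6 for rancRNA_18 against rancRNA_18-M2, in polysomal mRNA, with the lone library as replicate 2 and in no other setting run. No called log2 fold change changed sign in any setting run. None of these settings used TPM, in which the order of the DIM1 means was reversed. The median for polysomal over total with rancRNA_18 was -0.272 with the block and the lone library as replicate 1, and -0.112 with it as replicate 2. With the coding-length trend removed it was -0.018 without the block, and -0.181 and 0.0801 with it. With no RNA and no length trend removed, leaving out each replicate moved the median for polysomal over total between -0.295 and -0.123. For polysomal mRNA with rancRNA_18-M2 against no RNA, leaving out each replicate moved the median between -0.195 and -0.042, the first without no-RNA polysomal replicate 2. For the difference in loading of rancRNA_18 against no RNA it moved between -0.049 and 0.12, the first without that same library. The causes were not tested. Each member had at least 90 reads in every library.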
